A study of Homo sapiens with 7 samples.

Results

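The zinc finger genes of chromosome 19 were taken as every gene of the deposited expression table whose symbol is ZNF, a number and at most 1 further letter, and whose locus lies on chromosome 19. The rule gave 252 members among 26175 genes, out of 528 ZNF genes named in this way on all chromosomes. Symbol and position alone chose the members, and no measured value was used. A gene transcription start site (TSS) was counted as a member's own when it lay within 1000 nts of the member's locus and its nearest annotated start on the same strand, within 1000 nts, was one of that member. Of 204 called gene TSSs within 1000 nts of a member locus, 195 were own TSSs, at 190 members, and 9 belonged to neighbours such as ECSIT, VRK3 and FIZ1. In all, 10391 gene TSSs were called.

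The cells were T-47D, an established luminal breast cancer line. The A1-2 derivative used by the study overexpresses the rat glucocorticoid receptor and carries a stable luciferase reporter under the MMTV promoter. It was grown under a single condition, in 10% serum followed by at least 24 hours in 5% stripped serum, so the comparisons are between groups of genes and not between treatments. Start-seq maps the 5' ends of short capped nuclear RNAs, and the calls came from 1 of 2 Start-seq libraries. Besides gene TSSs, they hold antisense starts upstream of a gene TSS (uaTSSs) and antisense starts downstream of one (daTSSs). RNA-seq was deposited as 1 FPKM value per gene, merged from 3 replicates. With 1 value per gene and 1 library of calls, no error between replicates exists. Every interval below is an exact 95% interval over genes or TSSs, by Clopper and Pearson for a share and by order statistics for a median, and covers counting alone. No group of genes was tested against another. Among luminal epithelial markers, KRT8 was at 1142 FPKM, GATA3 at 360.4 FPKM and ESR1 at 44.1 FPKM, whereas 1 of 7 markers of other cell types reached 1 FPKM, the collagen gene COL1A1 at 8.82 FPKM.

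ZNF genes of this kind mostly encode C2H2 zinc finger proteins, in which arrays of fingers bind DNA. Many also carry a KRAB domain that recruits TRIM28 (KAP1), which in turn brings the methyltransferase SETDB1 and HP1 proteins and so establishes repressive chromatin, often over transposable elements. The family grew by tandem duplication, and its human members are concentrated in clusters on chromosome 19, where neighbours are often close paralogs.

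The chromosome 19 ZNF genes were broadly but weakly expressed. FPKM was above 0 for 248 of the 252 members (98.4%, 95% interval 96.0 to 99.6), beside 69.9% of all genes, and reached 1 for 206 members (81.7%, 76.4 to 86.3), beside 46.9% of all genes. ZNF genes on other chromosomes lay near the members, with 95.7% above 0 (92.5 to 97.7) and 79.3% at 1 FPKM or more (74.1 to 84.0). Among genes with a called gene TSS, 88.9% of members and 93.7% of all genes reached 1 FPKM. The 4 members listed at 0 were ZNF536, ZNF560, ZNF677 and ZNF728. At the upper end the order of members and all genes turned round. FPKM reached 10 for 22 members (8.73%, 5.55 to 12.9), beside 28.1% of all genes (27.5 to 28.6), and reached 20 for 4 members (1.59%, 0.434 to 4.01), beside 19% (18.5 to 19.5). Of the members at or above 1 FPKM, 184 (89.3%) lay below 10 FPKM, beside 40.1% of all genes at or above 1 FPKM.

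The median of the members was 2.92 FPKM (2.53 to 3.46), with quartiles of 1.34 and 5.54 FPKM. Over all genes the median was 0.528 FPKM (0.467 to 0.595), with an upper quartile of 12.6 FPKM. The 276 ZNF genes on other chromosomes had a median of 4.45 FPKM (3.6 to 5.16) and an upper quartile of 9.33 FPKM. The other 1450 genes of chromosome 19 had a median of 0.957 FPKM (0.616 to 1.48), and 26.8% of them were listed at 0. Among genes with a called gene TSS, the median was 3.39 FPKM for the 190 members (2.85 to 3.82), 6.14 FPKM for 185 ZNF genes elsewhere (5.24 to 7.44) and 16.5 FPKM for all 9771 genes (15.9 to 17). On the log2(FPKM + 0.1) scale, the median of these members lay 2.25 below that of all genes with a called TSS (a difference of -2.25, interval -2.49 to -2.08).

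**Figure D1:**
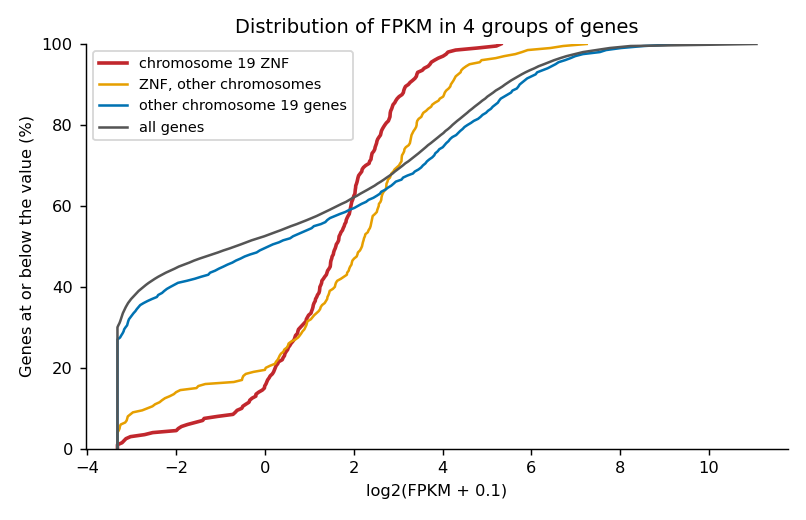
Cumulative share of genes (vertical axis, %) at or below a given log2(FPKM + 0.1) (horizontal axis) for the chromosome 19 ZNF genes, ZNF genes elsewhere, other chromosome 19 genes and all genes. The curve of the members rises steeply between 0 and 4, with few genes at the left edge, where genes listed at 0 lie, and few beyond 4; their median is 2.92 FPKM.

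ZNF350 had the highest level of the members, 39.7 FPKM. It encodes a KRAB repressor, also known as ZBRK1, that acts with BRCA1 on GADD45A. ZNF552 followed at 38.6 FPKM, ZNF580 at 32.0 FPKM and ZNF146 at 22.9 FPKM. ZNF146 (OZF) encodes a protein made up almost wholly of fingers, without a KRAB domain. The next 6 lay close together, with ZNF613 at 18.4 FPKM, ZNF358 at 17.3 FPKM, ZNF274 at 17.05 FPKM, ZNF444 at 16.2 FPKM, ZNF428 at 15.9 FPKM and ZNF83 at 14.6 FPKM. ZNF274 is a KRAB protein known for recruiting SETDB1 to the 3' ends of other ZNF genes. The highest member, ZNF350, stood at the 89.3th percentile of all genes, and the median member at the 59.8th.

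Well-known members sat across this range. ZNF91, a repressor of SVA retrotransposons, was at 5.48 FPKM, and ZNF93, a repressor of L1 elements, at 5.53 FPKM. ZNF675, an inhibitor of TRAF6 signalling, was at 10.9 FPKM and ZNF649 at 8.17 FPKM. ZNF473, which takes part in the processing of histone pre-mRNA, was at 7.21 FPKM. ZNF808, needed for pancreas development in humans, was at 3.46 FPKM. The imprinted gene ZNF331 was at 2.68 FPKM, ZNF568 at 2.43 FPKM and ZNF224, a repressor of aldolase A, at 2.15 FPKM. Apart from ZNF568, each of these members had its own called gene TSS.

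The members lay in 10 runs of at least 5 genes, in which each gene was less than 500 kb from the next. The runs held 238 members, and 14 were scattered. In order along the chromosome, numbered 1 to 10, the runs started at ZNF554, ZNF414, ZNF653, ZNF101, ZNF302, ZNF146, ZNF575, ZNF175, ZNF628 and ZNF264. The first 4 lay on the short arm. Median levels differed among runs. Run 8, from ZNF175 to ZNF331 (chr19:52074531-54083523, 42 members), had the highest median, 5.46 FPKM (3.91 to 6.77), and held ZNF350, ZNF613 and ZNF83. Run 6, from ZNF146 to ZNF573 (chr19:36672962-38270230, 26 members), had a median of 1.97 FPKM (1.37 to 3.34), although it began with ZNF146. Run 7, from ZNF575 to ZNF180 (23 members), had a median of 2.20 FPKM (1.05 to 2.91). The longest run, run 4, from ZNF101 to ZNF254 (chr19:19778962-24312769, 36 members), had a median of 2.87 FPKM (1.27 to 4.0), and run 10, from ZNF264 to ZNF446 (43 members), of 3.01 FPKM (2.24 to 3.97). Those intervals overlap each other, and the interval of run 8 lies above those of runs 6 and 7 but overlaps narrowly those of runs 4 and 10. Neighbours in a run are often paralogs and cannot be taken as independent genes. The runs were set by distance alone, and protein identity between members was not computed.

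**Figure D2:**
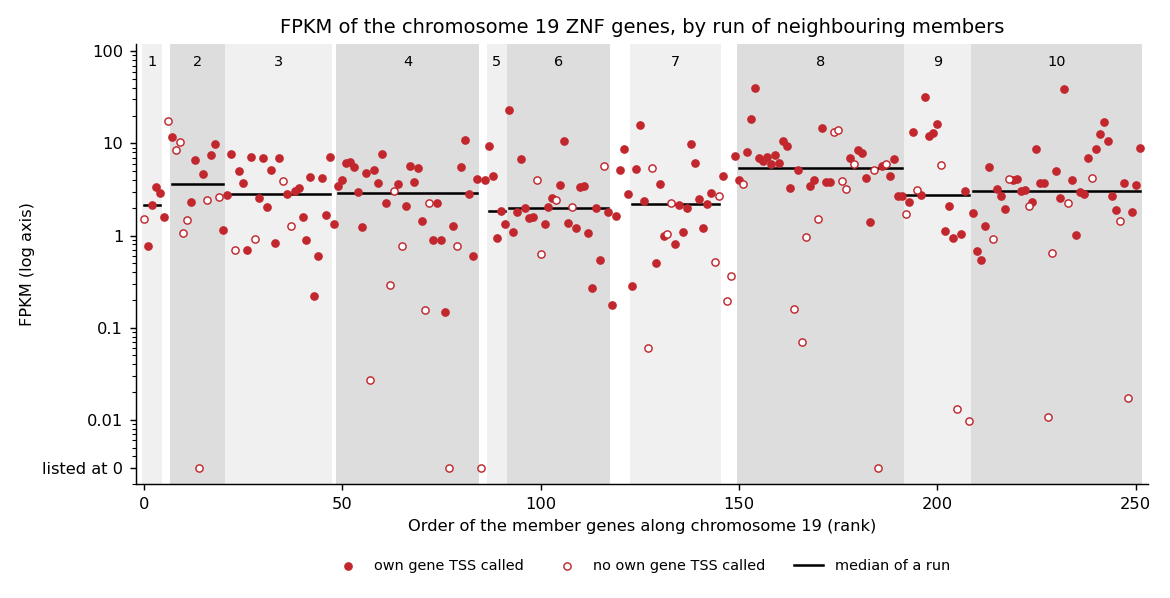
FPKM of each of the 252 members (log axis) against its rank along chromosome 19, with runs 1 to 10 shaded and numbered and their medians drawn as black lines. Filled points are members with their own called gene TSS and open points members without one; 4 members are listed at 0, and run 8 has the highest median line, at 5.46 FPKM.

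Transcription initiation was called at most members. An own gene TSS was called for 190 of 252 members (75.4%, 69.6 to 80.6), beside 37.3% of all genes. Among genes at or above 1 FPKM the shares were nearer, 82.0% of 206 members (76.1 to 87.0) beside 74.6% of 12271 genes (73.8 to 75.4). ZNF genes elsewhere had a called TSS in 67% of cases (61.1 to 72.5), and in 80.4% of those at or above 1 FPKM (74.5 to 85.4), close to the members. The authors searched only around annotated starts of RefSeq mRNAs, so genes without such a record were not searched, which lowers the share over all genes. Among genes annotated as protein-coding, 189 of 242 members (78.1%, 72.4 to 83.1) and 52.03% of 18688 genes (51.3 to 52.7) had a call. The 62 members without one had a median of 1.5 FPKM (0.914 to 2.45), and 37 of them reached 1 FPKM. The highest were ZNF358 at 17.3 FPKM, ZNF468 at 14.0 FPKM and ZNF28 at 13.4 FPKM. At the other end, ZNF99 had a called TSS at 0.148 FPKM, ZNF546 at 0.174 FPKM and ZNF443 at 0.221 FPKM. In all, 21 members had a called TSS with less than 1 FPKM. Own TSSs lay at a median of 12 nts from the nearest annotated start. The 30 nts downstream of the called TSS occurred once in the genome for 194 of 195 own TSSs, and the same held for at least 1 annotated start at 59 of the 61 uncalled members that had one. Other annotated starts of such members were repeated, among them 53360902 of ZNF468 and 53324922 of ZNF28, with 2 copies each. The authors kept only uniquely mapped reads, and whether this left these members uncalled was not tested.

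In 5 members, ZNF43, ZNF83, ZNF345, ZNF580 and ZNF829, a pair of own TSSs was called. In ZNF83, at positions 53141602 and 53193741 on the minus strand, both were accompanied by a uaTSS alone, at 177 and 181 nts. In ZNF43, at 22018951 and 22034533, both also had a uaTSS alone, at 164 and 52 nts. In ZNF345 and ZNF829 neither TSS had an antisense call. In ZNF580 1 of the 2 had a daTSS, at 326 nts and outside the annotated transcripts of the gene. The 2 TSSs of ZNF580 lay 752 and 734 nts from its nearest annotated start, so their assignment is less certain.

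A uaTSS accompanied 102 of the 195 own gene TSSs (52.3%, 45.1 to 59.5), beside 53.1% of all gene TSSs. A daTSS accompanied 48 (24.6%, 18.7 to 31.3), beside 28.4% of all gene TSSs. Both shares lay near the background. Both antisense calls were present at 23 own TSSs (11.8%, 7.63 to 17.2), beside 17.5% of all (16.7 to 18.2). The share was 12.3% at other chromosome 19 genes (9.73 to 15.4) and 21.4% at ZNF genes elsewhere (15.8 to 27.8). A uaTSS alone was present at 79, a daTSS alone at 25 and neither at 68 (34.9%, 28.2 to 42.0). Among own TSSs with a uaTSS, 23 of 102 (22.5%) had a daTSS, and among those without, 25 of 93 (26.9%) did. Over all gene TSSs the same shares were 32.9% and 23.4%. The counts of the members are small, and the difference between their shares was not tested. At ZNF genes elsewhere a uaTSS accompanied 60.9% of gene TSSs (53.7 to 67.9) and a daTSS 29.7% (23.3 to 36.7).

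**Figure D3:**
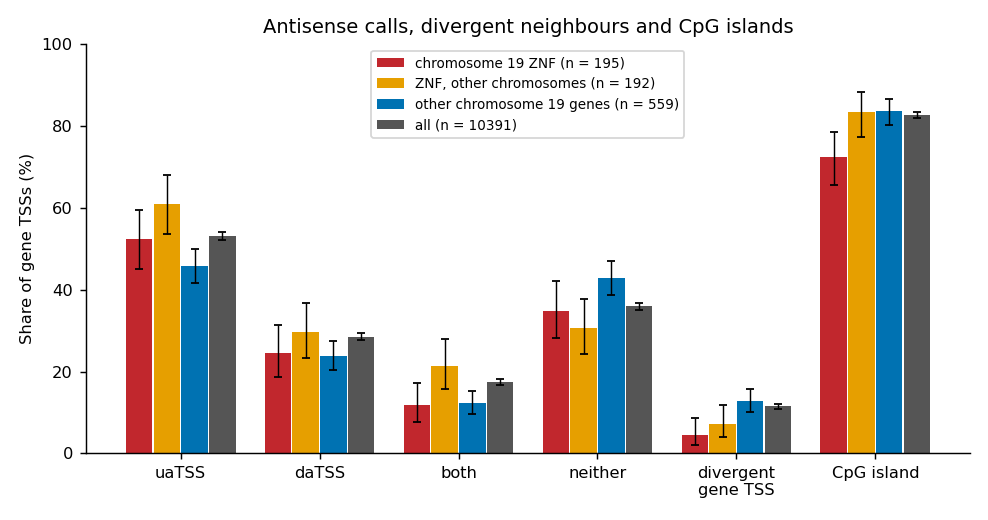
Share of gene TSSs (%) with a uaTSS, a daTSS, both, neither, a divergent gene TSS up to 1000 nts upstream, and a position in a CpG island, in 4 groups. Bars start at 0 and error bars are exact 95% intervals; the members have uaTSSs and daTSSs about as often as all gene TSSs and lie lower for divergent gene TSSs (4.62%) and CpG islands (72.3%).

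The antisense calls were spread over the whole range of expression. Median levels were 5.20 FPKM for members with both calls (3.54 to 6.96), 2.89 FPKM with a uaTSS alone (2.14 to 3.68), 3.29 FPKM with a daTSS alone (2.36 to 4.19) and 3.41 FPKM with neither (2.68 to 4.36), and these intervals overlap. ZNF350, ZNF787 at 12.9 FPKM and ZNF414 at 11.9 FPKM were the highest with both. ZNF146 and ZNF524, at 13.2 FPKM, were among the highest with neither, and ZNF552 and ZNF444 had a daTSS alone. Of the 21 own TSSs at members below 1 FPKM, 14 had a uaTSS (66.7%, 43.0 to 85.4), beside 30.2% of the 626 gene TSSs of all genes below 1 FPKM (26.6 to 34). ZNF99, the least expressed of them, had a uaTSS at 165 nts, and ZNF546 at 146 nts. ZNF492 and ZNF729, also among the 14, lie in run 4 with ZNF99 and each share promoter sequence with it. At ZNF genes elsewhere below 1 FPKM, 5 of 9 gene TSSs had a uaTSS (55.6%, 21.2 to 86.3). From 1 to under 5 FPKM the share was 46.8% of 109 own TSSs (37.2 to 56.6), beside 43.8% over all, and from 5 to under 20 FPKM it was 60% of 60 (46.5 to 72.4), beside 54.4%.

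Divergent gene pairs were few. Upstream of 9 own TSSs, at up to 1000 nts, a gene TSS of the opposite strand was called (4.62%, 2.13 to 8.58), beside 11.5% of all gene TSSs (10.9 to 12.2). Another gene TSS within 5000 nts on either side was found at 10.8% (6.79 to 16), beside 22.5% over all (21.7 to 23.3). At ZNF genes elsewhere these shares were 7.29% (4.04 to 11.9) and 15.1% (10.4 to 21.0), and their intervals overlap those of the members. In 2 pairs both partners were members. ZNF490 and ZNF791 started 196 nts apart, at 1.66 and 7.20 FPKM, and ZNF540 and ZNF571 started 467 nts apart, at 0.271 and 1.97 FPKM. The other 5 partners were DEDD2, ZNF561-AS1, IRGQ, VRK3 and FIZ1. In the runs, 139 of 226 adjacent pairs of members (61.5%) lay on the same strand.

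The uaTSSs of members lay at a median of 182 nts upstream (168 to 226, n = 102), beside 200 nts for all uaTSSs (195 to 204). The closest was 3 nts away, at ZNF415, and the farthest 835 nts, at ZNF653. The daTSSs lay at a median of 374 nts downstream (321 to 452, n = 48), beside 507 nts for all 2956 daTSSs (491 to 526) and 466 nts at ZNF genes elsewhere (324 to 572, n = 57). Their lower quartiles were close, 297 nts for the members and 313 nts for all, and the upper quartiles were 515 and 804 nts. Over 200 and up to 500 nts away lay 32 of the 48 (66.7%, 51.6 to 79.6), beside 38.8% of all daTSSs (37.0 to 40.6). The bin over 300 and up to 350 nts, picked after the distances were seen, held 10 of the 48 (20.8%, 10.5 to 35) beside 5.01% of all, among them those of ZNF708 at 313 nts, ZNF700 at 329 nts and ZNF69 at 338 nts. Within 200 nts there were 3 daTSSs, of which the closest was that of ZNF792, at 147 nts. Beyond 1000 nts there were 5, up to 1840 nts at ZNF841 and 1732 nts at ZNF552. At other chromosome 19 genes the median was 582 nts (475 to 653). The medians varied with FPKM. From 1 to under 5 FPKM the median was 331 nts for members (313 to 435) and 464 nts over all (409 to 508). From 5 to under 20 FPKM it was 452 nts for members (329 to 755) and 500 nts over all (479 to 531). At other chromosome 19 genes it was 441 nts (274 to 615) in the lower band and 390 nts (293 to 622) in the upper. Within each band these intervals overlap.

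**Figure D4:**
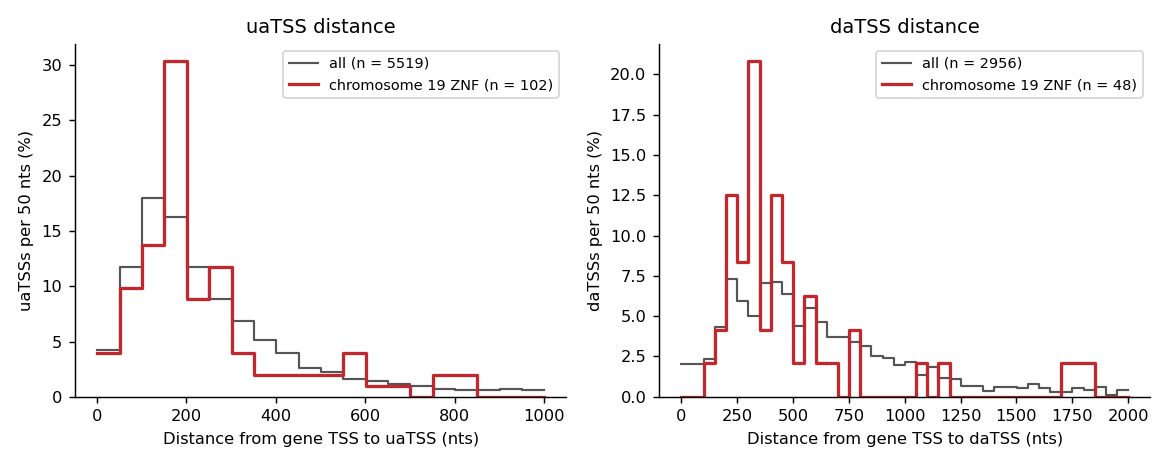
Share of uaTSSs (left, %) and daTSSs (right, %) per 50 nts against the distance from the gene TSS in nts, for members and for all gene TSSs. The member daTSSs concentrate below 500 nts (median 374 nts), while the distribution over all gene TSSs (median 507 nts) extends farther.

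Relative to the gene, 31 of 48 member daTSSs (64.6%) lay in the first intron of the transcript whose start was nearest, beside 65.7% over all. From the TSS to the end of exon 1 the members measured a median of 130 nts (112 to 147, n = 176), beside 180 nts for all (176 to 185). The median distance from the end of exon 1 to the daTSS was 281 nts (120 to 353, n = 46) for the members and 282 nts (264 to 295) for all. For the 36 own TSSs in a CpG island and with a daTSS, 18 daTSSs lay inside the island, and the daTSS lay at a median of 8 nts beyond its downstream edge, beside 46 nts before it over all (-46).

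CpG islands were computed from the sequence. They held 141 of 195 own TSSs (72.3%, 65.5 to 78.5), beside 82.7% of all gene TSSs (82.0 to 83.4). In run 4, from ZNF101 to ZNF254, 6 of 29 own TSSs (20.7%) lay in an island, and without that run the share was 81.3% (74.5 to 86.9). With a stricter definition (at least 500 bp, 55% GC and a higher CpG ratio) the share was 51.3% (44.04 to 58.5) beside 70.98% over all, and 59.04% without run 4 (51.1 to 66.6), still below that over all. The islands of members were also shorter, with a median of 619 bp (551 to 652), beside 923 bp over all (909 to 936) and 829 bp at ZNF genes elsewhere (776 to 951). They reached a median of 202 nts upstream and 371 nts downstream of the TSS, beside 373 and 488 nts. GC content in the 100 nts centred on the TSS was 63.0% ± 6.65 (SD over 195 TSSs), beside 67.2% ± 9.02 (SD over 10391 TSSs).

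Some promoter motifs were more frequent at the members than over all gene TSSs. Sequence from 100 nts upstream to 50 nts downstream of each TSS was searched on both strands. The CCAAT box, which NF-Y binds, was found at 68 own TSSs (34.9%, 28.2 to 42.0), beside 21.1% of all gene TSSs (20.3 to 21.9). CCGGAAG, a core of ETS factor sites, was found at 69 (35.4%, 28.7 to 42.5), beside 14.3% (13.7 to 15.0). Both were present at 35 own TSSs (17.9%, 12.8 to 24.1), beside 2.67% of all (2.36 to 2.99). ZNF genes elsewhere lay between, with the CCAAT box at 24.5% of 192 gene TSSs (18.6 to 31.2), the ETS core at 24% (18.1 to 30.6) and both at 6.25% (3.27 to 10.7). Where both were present their starts were a median of 34 nts apart, beside 40 nts over all gene TSSs with both (n = 277). The GC box GGGCGG was found at 47.2% (40.01 to 54.4), beside 54.8%, and AAGATGG, a core of YY1 sites, at 3.59% (1.46 to 7.26), beside 5.44%. GCATGCGC (NRF1), TGACGTCA (the CRE), CACGTG (the E-box) and ACTACAA (ZNF143 or THAP11) were each found at between 1.03% and 4.10% of own TSSs, beside between 1.45% and 5.54% of all. TATAW, with W for A or T, between 35 and 24 nts upstream on the TSS strand, was found at 0 of 195 own TSSs, which allows a share of up to 1.54% by 3 counts of the total and 1.87% by the exact interval, beside 3.003% over all. CANW with A at the TSS was found at 20.5% (15.1 to 26.9), beside 18.8%. Only the strings given here were searched, so variant forms of the same sites, such as those of ZNF143 or THAP11, were not counted. A match is a string of letters and not a measured binding site.

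These motifs followed the runs. The CCAAT box was found at 23 of 29 own TSSs in run 4 (79.3%) and 20 of 34 in run 10 (58.8%), but at 3 of 30 in run 8 (10.0%). Without run 4 its share among the members was 27.1% (20.5 to 34.5). The ETS core was found at 19 of 30 own TSSs in run 8 (63.3%), 17 of 29 in run 4 (58.6%) and 18 of 34 in run 10 (52.9%), and at 2 of 23 in run 3 (8.70%). Without run 4 its share was 31.3% (24.4 to 39). Both motifs together were found at 16 own TSSs in run 4 and 12 in run 10, which leaves 7 elsewhere. The median level was 2.92 FPKM with a CCAAT box (2.57 to 3.98) and 3.46 FPKM without (2.91 to 4.36). It was 3.82 FPKM with an ETS core (3.29 to 5.0) and 2.92 FPKM without (2.53 to 3.70), and in both cases the intervals overlap. A uaTSS accompanied 54.4% of own TSSs with a CCAAT box and 51.2% of those without.

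Longer words showed the same families. Of all words of 8 bases in these windows, TCCAATCA was found at 28 own TSSs, 21 of them in run 4, 5 in run 3 and 2 in run 1 (14.4%, beside 0.914% of all gene TSSs). CCCGGAAG was found at 40 (20.5%, beside 5.31%), 16 of them in run 4 and 16 in run 8. TCTGGGAA was found at 26 (13.3%, beside 1.395%), 9 of them in run 7 and 7 in run 6. GAGACAAA was found at 18 (9.23%, beside 0.597%), 16 of them in run 4. The words were ranked by their excess in these same windows, so these shares are descriptions. A word of 20 bases was shared with the promoter window of another member at 65 of 195 own TSSs (33.3%, 26.8 to 40.4), beside 5.21% of ZNF TSSs elsewhere and 2.68% of other chromosome 19 TSSs, each within its own group. Of 110 pairs of TSSs that shared such a word, 108 lay in the same run. ZNF91 shared one with 12 other TSSs, among them those of ZNF85, ZNF254 and ZNF675.

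Where both motifs were present, the CCAAT box lay upstream of the ETS core at 27 of 35 own TSSs (77.1%), beside 187 of 277 over all (67.5%), so this order was common among gene TSSs in general. The windows of 3 members of run 4, whose annotated start lay within 4 nts of the called TSS, are shown to let this arrangement be read, from 100 nts upstream to 10 nts downstream in hg19, with the CCAAT box and the ETS core in capitals on either strand (ATTGG and CTTCCGG are their complements). ZNF91 was at 5.48 FPKM, ZNF493 at 2.10 FPKM and ZNF492 at 0.889 FPKM.
ZNF91 (gene TSS, chr19:23578246-23578355, minus strand): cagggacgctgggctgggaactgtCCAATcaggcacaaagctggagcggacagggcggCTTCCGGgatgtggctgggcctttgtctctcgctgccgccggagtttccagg
ZNF492 (gene TSS, chr19:22817026-22817135, plus strand): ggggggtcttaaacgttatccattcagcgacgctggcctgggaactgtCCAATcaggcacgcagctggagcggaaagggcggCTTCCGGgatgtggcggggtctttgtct
ZNF493 (gene TSS, chr19:21579835-21579944, plus strand): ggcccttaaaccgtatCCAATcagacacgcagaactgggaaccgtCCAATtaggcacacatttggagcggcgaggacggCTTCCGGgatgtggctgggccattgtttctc
ZNF91 shared an unbroken stretch of 24 bases with ZNF493 and of 23 bases with ZNF492. In all 3 the CCAAT box lay upstream of the ETS core. ZNF492 had a uaTSS, at 230 nts, and the other 2 had no antisense call.

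In run 8 the ETS core lay at the TSS itself in some members, as the windows of ZNF845 (5.71 FPKM) and ZNF813 (2.68 FPKM) show, with the ETS core in capitals.
ZNF845 (gene TSS, chr19:53836911-53837020, plus strand): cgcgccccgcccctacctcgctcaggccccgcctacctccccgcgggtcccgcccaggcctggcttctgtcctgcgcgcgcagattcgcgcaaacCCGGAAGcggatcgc
ZNF813 (gene TSS, chr19:53970905-53971014, plus strand): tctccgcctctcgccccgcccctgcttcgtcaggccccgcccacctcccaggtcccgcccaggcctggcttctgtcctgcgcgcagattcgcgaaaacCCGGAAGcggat
Their longest shared stretch was 34 bases. ZNF845 had a uaTSS at 196 nts, and ZNF813 had neither antisense call. In run 10 the pair of motifs came back, in the same order, at ZNF773 (4.14 FPKM), ZNF586 (2.57 FPKM) and ZNF417 (2.95 FPKM), whose windows are shown with the same capitals.
ZNF417 (gene TSS, chr19:58427955-58428064, minus strand): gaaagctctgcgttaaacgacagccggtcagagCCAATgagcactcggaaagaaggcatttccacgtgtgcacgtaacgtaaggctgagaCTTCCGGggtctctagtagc
ZNF773 (gene TSS, chr19:58011177-58011286, plus strand): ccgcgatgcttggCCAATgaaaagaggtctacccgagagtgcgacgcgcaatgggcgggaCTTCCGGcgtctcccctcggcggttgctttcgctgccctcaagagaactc
ZNF586 (gene TSS, chr19:58280938-58281047, plus strand): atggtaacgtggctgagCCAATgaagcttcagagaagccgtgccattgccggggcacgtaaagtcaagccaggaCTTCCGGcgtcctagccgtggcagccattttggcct
These 3 windows had less in common. Their longest shared stretch was 14 bases, between ZNF773 and ZNF586, and it includes the ETS core itself. In run 7 the CCAAT box was found at 2 of 17 own TSSs and the ETS core at 4, whereas TCTGGGAA was found at 9. It is shown in capitals at ZNF225 (1.09 FPKM), whose window holds 2 copies, and at ZNF155 (3.65 FPKM), whose window holds 1.
ZNF225 (gene TSS, chr19:44617448-44617557, plus strand): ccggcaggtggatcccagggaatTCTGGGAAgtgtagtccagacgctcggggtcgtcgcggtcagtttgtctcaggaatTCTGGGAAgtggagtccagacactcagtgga
ZNF155 (gene TSS, chr19:44488240-44488349, plus strand): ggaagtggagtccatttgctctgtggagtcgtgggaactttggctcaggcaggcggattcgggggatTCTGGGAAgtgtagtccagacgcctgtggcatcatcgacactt
In both windows a copy is followed by gtgtagt, whose complement actacac differs in its last base from the ACTACAA searched above. Their longest shared stretch was 25 bases, and neither TSS had an antisense call.

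**Figure D5:**
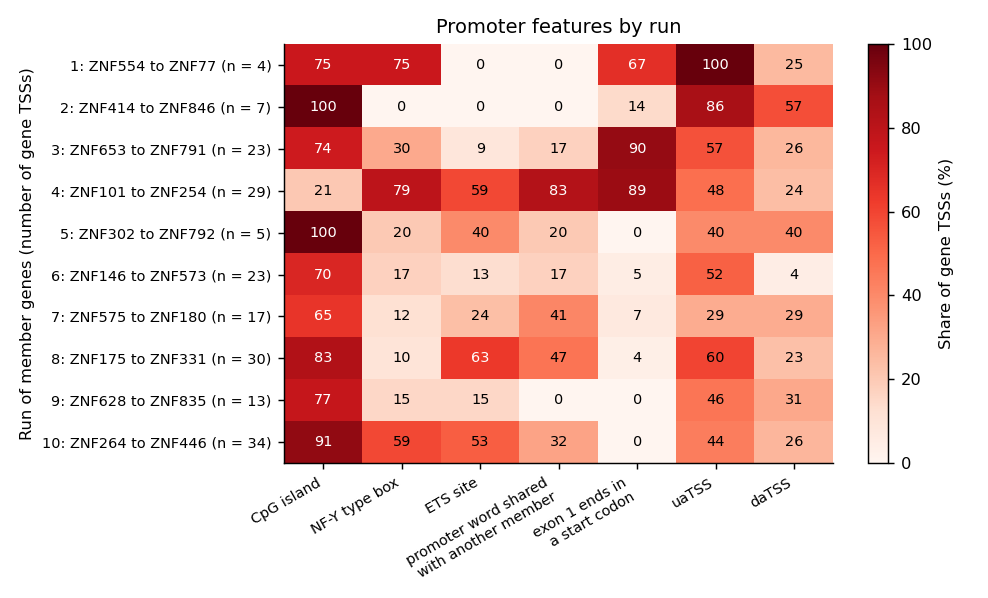
Heat map of 7 features (columns) in the 10 runs of members (rows), coloured and labelled by the share of own gene TSSs in % (for exon 1, the share of TSSs with an annotated exon 1 of suitable length); the NF-Y type box is the CCAAT box. Run 4 has few CpG islands (20.7%), many CCAAT boxes (79.3%) and many shared promoter words (82.8%), and in runs 3 and 4 exon 1 ends in ATG at 90.5% and 89.3%.

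The antisense starts of neighbouring members shared sequence too. In the windows around uaTSSs the CCAAT box was found at 36 of 102 (35.3%, 26.1 to 45.4), beside 20.3% of all uaTSSs (19.3 to 21.4). A uaTSS less than 200 nts away has a window that overlaps that of its gene TSS, so the same box can be counted at both. The word CTGAGTGA was found at 17 uaTSSs (16.7%, beside 0.761% of all), whose distances ran from 77 to 238 nts with a median of 165 nts. It is shown in capitals at the uaTSSs of ZNF93 (170 nts upstream of the gene TSS), ZNF99 (165 nts) and ZNF253 (185 nts), each read on the antisense strand.
ZNF93 (uaTSS, chr19:20011609-20011718, minus strand): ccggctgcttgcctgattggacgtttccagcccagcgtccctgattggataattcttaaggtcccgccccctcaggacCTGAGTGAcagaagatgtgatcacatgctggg
ZNF99 (uaTSS, chr19:22966972-22967081, plus strand): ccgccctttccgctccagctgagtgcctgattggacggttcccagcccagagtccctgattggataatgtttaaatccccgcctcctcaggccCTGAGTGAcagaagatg
ZNF253 (uaTSS, chr19:19976528-19976637, minus strand): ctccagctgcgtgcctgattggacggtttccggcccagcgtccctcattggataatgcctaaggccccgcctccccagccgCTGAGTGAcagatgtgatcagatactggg
These members differed widely in level, with ZNF253 at 6.36 FPKM, ZNF93 at 5.53 FPKM and ZNF99 at 0.148 FPKM. The daTSS windows had fewer members to compare. AGATTGTG was found at 9 of 48 (18.8%, beside 0.575% of all), namely ZNF44, ZNF69, ZNF100, ZNF253, ZNF440, ZNF442, ZNF506, ZNF700 and ZNF708. Windows from 40 nts upstream to 10 nts downstream of 3 such daTSSs, with the bases at -1 and +1 in capitals, show where the starts of these paralogs fell in related sequence.
ZNF253 (daTSS, chr19:19976920-19976969, minus strand): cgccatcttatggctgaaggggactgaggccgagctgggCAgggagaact
ZNF708 (daTSS, chr19:21511861-21511910, plus strand): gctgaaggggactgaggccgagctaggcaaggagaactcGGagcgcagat
ZNF100 (daTSS, chr19:21950078-21950127, plus strand): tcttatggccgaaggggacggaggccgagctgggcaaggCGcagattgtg
Here ZNF253 and ZNF708 shared 24 bases, but their daTSSs lay 207 and 313 nts from the gene TSS, and that of ZNF100 lay at 297 nts. ZNF253 and ZNF708 also had a uaTSS and ZNF100 did not.

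A feature of exon 1 also followed the runs. In the transcript whose start was nearest, exon 1 ended with the letters ATG at 50 of 175 own TSSs (28.6%, 22.0 to 35.9), beside 3.37% of all gene TSSs (3.01 to 3.77). Of these, 44 lay in runs 3 and 4, where 44 of 49 had it (89.8%, 77.8 to 96.6), and 6 of 126 lay elsewhere (4.76%, 1.77 to 10.1). All 50 were followed by GT, as at a splice donor. Whether translation starts there was not examined.

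The shares of antisense calls by run had wide intervals. A daTSS accompanied 1 of 23 own TSSs in run 6 (4.35%, 0.110 to 21.9), that of ZNF571 at 673 nts, and 9 of 34 in run 10 (26.5%, 12.9 to 44.4). A uaTSS accompanied 5 of 17 in run 7 (29.4%, 10.3 to 56.0) and 18 of 30 in run 8 (60%, 40.6 to 77.3). The daTSSs of run 4 lay between 207 and 458 nts, at a median of 297 nts (n = 7).

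The corepressor genes with which KRAB zinc finger proteins act were all expressed and lay above most members. Of 16 genes looked up, 16 exceeded the median member, and 8 exceeded the highest member. Among all genes the median member stood only at the 59.8th percentile, and the highest at the 89.3th. TRIM28, itself on chromosome 19, was at 133.9 FPKM and SETDB1 at 22.2 FPKM. The HP1 genes CBX1, CBX3 and CBX5 were at 88.6, 138.2 and 82.0 FPKM. Among the other cofactors, HDAC1 was at 139.9 FPKM, and ATF7IP, which stabilises SETDB1, was the lowest at 11.3 FPKM. A gene TSS was called for 13 of the 16, with a uaTSS at 8 and a daTSS at 6. Over all, 74.6% of genes at or above 1 FPKM had a called gene TSS. Of all gene TSSs, 53.1% had a uaTSS and 28.4% a daTSS. TRIM28 had a uaTSS at 84 nts and no daTSS.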

How the data were processed

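The authors trimmed the reads and aligned them to hg19, and the submitters' processing notes name cutadapt 1.2.1, Bowtie 0.12.8, TopHat2 2.0.4, Cufflinks 2.2.1 and Picard. The authors deposited RNA-seq as FPKM, estimated with Cufflinks after merging 3 replicates. The TSS calls were deposited as single hg19 positions with a score of 0 throughout, called at 5 or more reads at 1 nucleotide near RefSeq mRNA starts, and carry no reads per call. The tables held 0 columns of other samples.

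Of the 252 members, 248 matched the GENCODE annotation of GRCh37 (hg19) by symbol and 3 by an older symbol; 242 were protein-coding. Cufflinks reports a merged locus for overlapping genes, so own TSSs were assigned by annotated starts. CpG islands had over 200 bp, at least 50% GC and an observed to expected CpG ratio above 0.6. The assignment of TSSs was tested on simulated data. Computations used Python 3.11.15. Members and lists were chosen with earlier results of these data known. Named genes were the 10 highest members, the 3 highest of each antisense class and without a TSS, the 3 lowest with a TSS, members with several TSSs, divergent pairs, the extreme distances, and listed known members and cofactors; others illustrate a sequence or run and were picked after their values were seen. Windows of 100 nts upstream were printed instead of the planned 40 nts, after motif positions were seen. Alternatives covered TSS assignment, FPKM filters, the pseudocount, island definition, windows and paralogy. The second Start-seq library and the nucleosome and open-chromatin data were not used here. One of the markers looked up is not reported here.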

Additional observations from a re-analysis of the deposited data

How the results depend on the processing

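Of 63 recomputations of 9 values, 55 stayed within the 95% interval of the main value and 8 moved beyond it. Only the log2 difference could have changed sign, as the other values cannot be negative, and it did not. Of the 63, 16 were chosen after seeing the data. The share of members with a called gene TSS was 68.3% when the TSS had to lie within 200 nts of an annotated start and 82.0% at 1 FPKM or more. The median level was 3.69 FPKM at 1 FPKM or more. The log2 difference from all genes was -1.99 with a pseudocount of 1. The share in CpG islands was 51.3% with stricter islands, beside 70.98% of all gene TSSs, 81.3% without the run from ZNF101 to ZNF254, and 59.04% with both changes. GC content was 61.6% over 500 nts, beside 66.1% for all. Leaving out members with at least 10% of their exonic 100-base windows in another ZNF gene (12 of 251) gave a median of 2.94 FPKM. Each moved value follows from its own filter, window or pseudocount.

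No paired analysis was possible because FPKM is 1 merged column and the TSS calls come from 1 library, and for the same reason no replicate was left out. Sequence features of the proteins were not analysed here. The calls carry no reads, were made from uniquely mapped reads and were searched only near RefSeq mRNA starts. An uncalled TSS can thus be one below the threshold, one outside the search or one in repeated sequence.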

Other observations

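Members at which mRNA and initiation calls parted were of both kinds. ZNF317, at 10.5 FPKM, and ZNF558, at 8.54 FPKM, joined ZNF358, ZNF468 and ZNF28 among the uncalled members, and the 4 members listed at 0 had no call. Exonic sequence shared with other ZNF genes was low for most members. In 182 of 251 no exonic window of 100 bases recurred in another ZNF gene, and the largest share was 33.6%, at ZNF587 (3.97 FPKM).

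Across the 195 own TSSs, log2 FPKM and GC content within 100 nts had a Spearman correlation of 0.0924 and a Pearson correlation of 0.0801, described over genes that share sequence and 1 library.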
